A study of Homo sapiens with 3 samples.

Results

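The cytosolic chaperonin, prefoldin and the co-chaperones of HSP70 and HSP90 were followed in HEK293T cells that had been treated with the aminoglycoside G418. Transcripts were chosen by gene name alone: the CCT subunits and TCP1, the PFDN subunits, the DNAJ, BAG and FKBP families, and STIP1, AHSA1, PTGES3, CDC37, STUB1, HSPA4, HSPA14 and HSPBP1. DNAJB1, DNAJB9, DNAJB11, DNAJC3 and DNAJC10 were left out. This rule gave 61 of the 8812 transcripts listed in all 3 tables, with 1 transcript per gene. Of the 61 members, 51 had enough reads in the coding sequence (CDS) on average to enter the tests, with 5633 other transcripts, while the other 10 fell below the minimum. Several names covered by the rule, CCT4, CCT5, STIP1, HSPA14, BAG1, DNAJA1 and DNAJC7 among them, were not analysed here.

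The chaperonin (TRiC, or CCT) is a double ring of related subunits that encloses newly made actin, tubulin and other proteins while they fold. Prefoldin is a jellyfish-shaped hexamer that holds unfolded actin and tubulin and hands them to the chaperonin. J-domain (DNAJ) proteins deliver clients to HSP70 and trigger its ATP hydrolysis. BAG proteins, HSPBP1 and the HSP110 family, to which HSPA4 belongs, then help HSP70 to release ADP. CDC37, AHSA1, PTGES3 (p23) and the large FKBP proteins act in the HSP90 cycle, and STUB1 (CHIP) is a ubiquitin ligase that docks on HSP70 and HSP90.

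In ribosome profiling, mRNA fragments shielded by ribosomes (RPFs) are sequenced, so reads on a CDS measure its ribosome occupancy, in which mRNA level and translation cannot be told apart. HEK293T is a human embryonic kidney line carrying the SV40 large T antigen. The groups were 2 libraries of untreated cells (Untreated A and B) and 1 library of cells exposed for 24 hours to G418 at 500 µg/mL (G418 A), a drug that binds the decoding centre of the ribosome and raises readthrough of stop codons. The depths were 5857230, 9477972 and 7216039 reads. The line's filament genes NEFL, NEFM, INA and VIM were listed in all 3 libraries, whereas PTPRC, ALB, HBB and PECAM1 were listed in none. INA lay between 11.8 and 17.9 RPKM and NEFM between 12.5 and 21.3, not far above the fibroblast collagen COL1A1 (7.99 to 10.7 RPKM). COL3A1, another fibroblast collagen, was listed in Untreated B alone, at 1.01 RPKM. The study describes its replicate libraries as biological replicates.

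The stop codons that carry the readthrough results are shown first, read from hg38 (GENCODE 44). Each run holds 15 bases of CDS, then the stop codon and the base after it in capitals, then 11 more bases of the 3′UTR. All 7 stop codons lay in the last exon of the listed transcript. The first 5 belong to members with many readthrough reads under G418, and the last pair to members with almost none.
CCT6A, chr7:56063083-56063085, plus strand: tcttctctgaaaggtTGAAttgaagcttcc
FKBP3, chr14:45116198-45116200, minus strand: ttagtggatattgatTGAAatagcagtgct
CCT8, chr21:29056475-29056477, minus strand: gatgaccaaaatgatTGAAattggcttaat
TCP1, chr6:159779045-159779047, minus strand: ggagcccttaatgatTGATctgatgttcct
CCT7, chr2:73252859-73252861, plus strand: cgtggccgcccccacTGAGaggcaccccac
CCT2, chr12:69601450-69601452, plus strand: ttaagtttggatattTAGCtgaccttcgct
PFDN6, chr6:33296878-33296880, plus strand: ccagactcatttttcTGATattcagagagg
CCT6A, FKBP3 and CCT8 share the signal UGAA, the stop codon with the base that follows it. TCP1 and PFDN6 share UGAU and had very different readthrough under G418 (36.2% and 0.774% of CDS density). The listed stops of CCT2 and PFDN6 lie 127 and 6035 bp from those of the isoforms chosen to represent these genes. The listed TCP1 stop is that of its representative isoform, so the UGAU pair is not a like comparison.

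Ribosome occupancy of the chaperone transcripts was compared first, to ask whether their CDS reads moved under G418 relative to other transcripts. A single member rose past the threshold and none fell. STUB1 had 35.2 CDS RPM (reads scaled to a common library total) in Untreated A and 42.6 in Untreated B, against 80.2 in G418 A, from 206, 404 and 579 reads. The G418 value lay above both untreated values, by 1.19 on the log2 scale over A and 0.91 over B, and by 1.04 over their mean (edgeR quasi-likelihood test, Benjamini-Hochberg adjusted p = 0.00306). Among all 5684 transcripts tested, 1.94% rose and 0.721% fell at an adjusted p under 0.05 (2.66% in either direction), so 1 of 51 members is close to the background. At an unadjusted p under 0.05, 6 members passed, 5 of them higher, beside 13.6% of all transcripts. These p-values take their spread from the pair of untreated libraries, and the G418 library is assumed to vary like them. DESeq2 called 0 members, with 2 at an unadjusted p under 0.05 and 27 transcripts called in all, and its independent filtering gave no adjusted p for STUB1 and 27 other members.

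**Figure D1:**
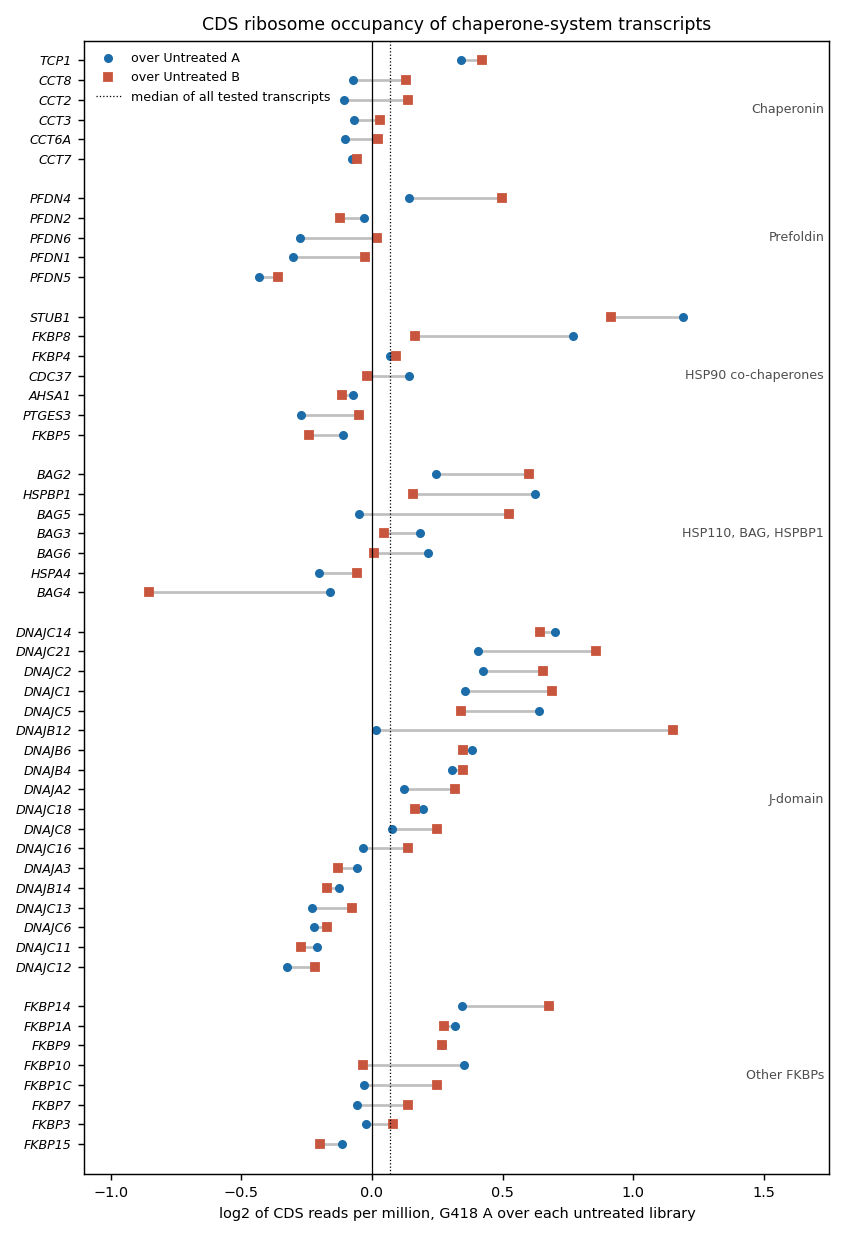
CDS reads (RPM) of the 51 tested members in G418 A over each untreated library on a log2 scale, by group, with circles for the ratio to Untreated A, squares for the ratio to Untreated B and a dotted line at the median of all tested transcripts (0.07). STUB1 stands far to the right in both ratios (1.19 and 0.91), whereas DNAJB12 does so over Untreated B (1.15) and not over Untreated A (0.02).

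The chaperonin subunits were among the most densely occupied members, and none passed the test. CCT7 had the highest CDS density of the 6 listed subunits, 836 RPKM in Untreated A and 824 in Untreated B, against 792 in G418 A. CCT6A had the lowest, with 417, 382 and 388 RPKM. CCT2, CCT3, CCT6A and CCT8 lay between the untreated values in RPM, and CCT7 lay below both by 0.08 and 0.06 on the log2 scale of RPM. TCP1, the alpha subunit, had 824 RPM in Untreated A and 780 in Untreated B, against 1044 in G418 A. It was the subunit above both untreated values, by 0.34 and 0.42 on the log2 scale, and did not pass the test (edgeR adjusted p = 0.438).

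Relative to the median subunit of the complex in the same library, TCP1 stood at 0.811 and 0.852 in the untreated libraries and at 1.03 in G418 A. CCT7 stood at 1.35 and 1.48 times the median without the drug and at 1.28 times with it. CCT2 went from 1.08 and 1.01 to 1.01, and CCT8 from 1.04 and 1.01 to 0.995. These are ratios of CDS densities within a library, so the scaling between libraries does not enter them.

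**Figure D2:**
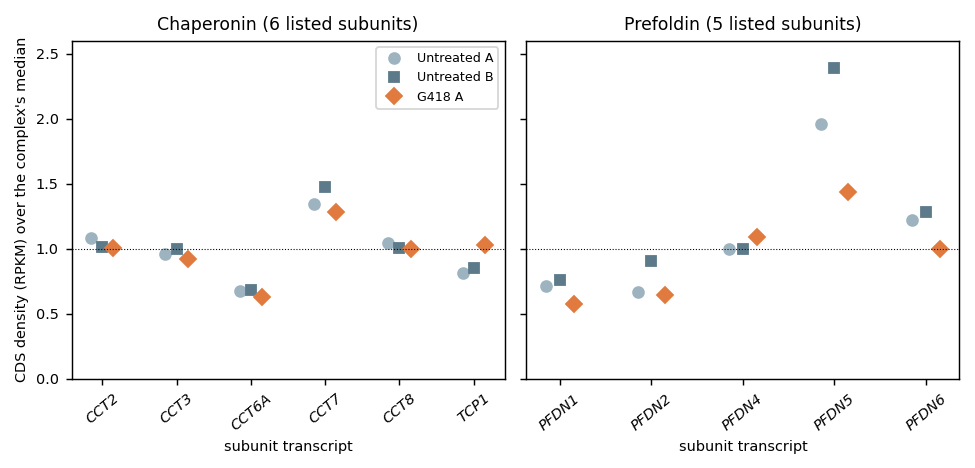
CDS density (RPKM) of each listed chaperonin and prefoldin subunit over the median of its complex, per library, with circles and squares for Untreated A and B and diamonds for G418 A. TCP1 goes from 0.811 and 0.852 to 1.03, and PFDN5 from 1.96 and 2.39 to 1.43. PFDN1, PFDN2 and PFDN6 also stand lower against the median in G418 A, and PFDN4 stands higher.

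No prefoldin subunit passed the test, and 3 of the 5 listed lay below both untreated values in RPM, beside 27.9% of all transcripts. A count out of 5 is too small to set against that share. PFDN5, an alpha-type subunit also known as the MYC-binding protein MM-1, had 243 RPM in Untreated A and 232 in Untreated B, against 180 in G418 A. It lay below both, by 0.43 and 0.36 on the log2 scale (edgeR unadjusted p = 0.0114, adjusted p = 0.179). PFDN5 was also the most densely occupied prefoldin subunit: its density was 1.96 and 2.39 times the median subunit in the untreated libraries and 1.43 times in G418 A. The median subunit was PFDN4 in both untreated libraries and PFDN6 in G418 A. Against the median, PFDN1, PFDN2 and PFDN6 also fell (log2 -0.36, -0.29 and -0.32), and PFDN4 rose (log2 0.12). The fall of PFDN5 against the median (log2 -0.60) was larger than its fall in RPM (log2 -0.40 over the untreated mean). PFDN1 went from 65.9 and 54.4 RPM to 53.5, and PFDN2 from 82.5 and 87.7 to 80.7. PFDN6 had 98.2 and 80.2 RPM without the drug and 81.2 with it, inside the untreated range. PFDN4 was the subunit above both, with 107 and 83.6 RPM in the untreated libraries and 118 in G418 A. The median log2 change over the 5 listed subunits was -0.14, beside 0.07 for all tested transcripts. VBP1, the subunit known as prefoldin 3, is outside the name rule.

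Of the 10 members with the largest CDS differences of 1 sign over both untreated libraries, 6 were J-domain proteins, and none of these 6 passed the adjusted test. DNAJC21, which acts in maturation of the large ribosomal subunit, had 71.7 and 52.5 RPM in the untreated libraries and 95.1 in G418 A (log2 0.61, edgeR adjusted p = 0.144). DNAJC2, a J-domain partner of HSP70 on the ribosome, had 59.4 and 50.6 RPM and then 79.7 (log2 0.53, adjusted p = 0.293). DNAJC1 of the endoplasmic reticulum (ER) had 83.8 and 66.6 RPM and then 107. DNAJC14, also an ER protein, had 24.1 and 25.01 RPM and then 39.1, a log2 difference of 0.67 over the untreated mean. DNAJC5, the cysteine string protein of secretory vesicles, had 19.0 and 23.3 RPM and then 29.5. DNAJB12 had 27.8 and 12.7 RPM without the drug and 28.1 with it, so its log2 difference of 0.47 came from Untreated B.

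Outside the J-domain family, FKBP8 of the outer mitochondrial membrane had 82.6 and 126 RPM and then 141. FKBP14, a prolyl isomerase of the ER, had 46.1 and 36.6 RPM and then 58.5 (log2 0.50). BAG4, a BAG protein that binds the TNF receptor, had 14.9 and 24.1 RPM and then 13.3, a log2 difference of -0.55. The spread between the untreated libraries was large for BAG4 and FKBP8, and neither passed the test (edgeR adjusted p = 0.452 and 0.384).

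By direction, 11 of the 18 tested J-domain transcripts lay above both untreated values in RPM and 6 below both. Over all 51 members, 23 lay above both (46.3% of all transcripts did), 16 below both (27.9%) and 12 between. The G418 library was shifted upward as a whole on the RPM scale, and scaling by the trimmed mean of M-values (TMM) moved it down by 0.07 on the log2 scale. After TMM, 18 members lay above both and 19 below both, beside 37.2% and 36.2% of all transcripts. The median log2 difference of the members in RPM was 0.08, beside 0.07 for all. Sorting the members by compartment was done after their values had been seen. The median log2 difference was 0.22 for the 10 ER members, of which 6 lay above both untreated values and 1 below.

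Other chaperone genes that are no members were counted from a list of 53 names. Of these, 42 were tested, 2 rose and 0 fell in edgeR, with 8 at an unadjusted p under 0.05, 4 of them lower. HSPA1A and HSPA1B, the stress-inducible HSP70 genes, were the pair that rose, by 0.65 and 0.65 on the log2 scale of RPM (edgeR adjusted p = 0.0388 and 0.0410). These genes are near-identical copies, and their reads cannot be assigned with certainty. The median log2 difference over the 42 was 0.02.

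Readthrough was compared next. The ribosome readthrough score (RRTS) is the RPF density from the normal termination codon (NTC) to the first in-frame stop codon of the 3′UTR (3′TC), over the CDS density. Its window starts 6 nt past the NTC. Reads in this window are called readthrough reads here, and the study states their origin from readthrough as an assumption. In its deeper libraries of untreated cells, the study found 3′UTR reads spread evenly over all reading frames. Under G418 the frame of the CDS was strongly kept. Reading frame was not available here, so the origin of the untreated reads in this window was not tested. Pooled over the 51 members, RRTS was 1.85% in Untreated A (79 reads) and 2.10% in Untreated B (140 reads), against 19.5% in G418 A (1049 reads). The untreated mean was 1.98% ± 0.176 (SD, n = 2), and the G418 value was 9.86 times as high. Over all tested transcripts the values were 1.57%, 1.25% and 21.3%, a ratio of 15.2. The exact 95% Poisson interval of the member value was 1.47% to 2.31% in Untreated A, which holds the value of all transcripts. It was 1.77% to 2.48% in Untreated B, above that value, and 18.3% to 20.7% in G418 A, below it. All intervals given here cover counting error only.

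In the test of readthrough reads against those expected from CDS density, 2 members rose and 0 fell, beside 2.38% of all transcripts that rose. FKBP3, a nuclear FK506-binding prolyl isomerase, had 7 readthrough reads in Untreated A and 8 in Untreated B, against 125 in G418 A. Its RRTS was 3.92%, 2.98% and 57.8% (edgeR adjusted p = 0.00556), and the untreated values lay close together. CCT7 had 3, 35 and 114 reads and an RRTS of 0.510%, 3.73% and 16.6% (edgeR adjusted p = 0.00966). The untreated values of CCT7 lay far apart, and the G418 value lay above both. At an unadjusted p under 0.05, 7 members passed, all higher, beside 6.95% of all transcripts. DESeq2 with the same expected reads called 0 members and 0 transcripts in all, with 5 members at an unadjusted p under 0.05 and an adjusted p of 0.146 for FKBP3 and 0.269 for CCT7.

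Counting error alone was a weaker bar. The Poisson interval of RRTS in G418 A lay above both untreated intervals for 20 of 51 members (39.2%), beside 25.8% of all transcripts. Members with many CDS reads have narrower intervals, and the part of depth in this share was not tested. Besides FKBP3 and CCT7 the 20 included CCT3, CCT6A, CCT8, TCP1, PFDN4, PFDN5, AHSA1, CDC37, BAG2 and BAG6. At least 1 readthrough read was found for 45.1% of members in Untreated A, 33.3% in Untreated B and 84.3% under G418, beside 24.0%, 22.3% and 75.8% of all tested transcripts. These shares also depend on the number of CDS reads, and the part of depth in them was not tested. For 24 of the 51 members both untreated libraries had none, and 18 of these had at least 1 in G418 A. Over all tested transcripts this count was not made, so it does not set the members apart.

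**Figure D3:**
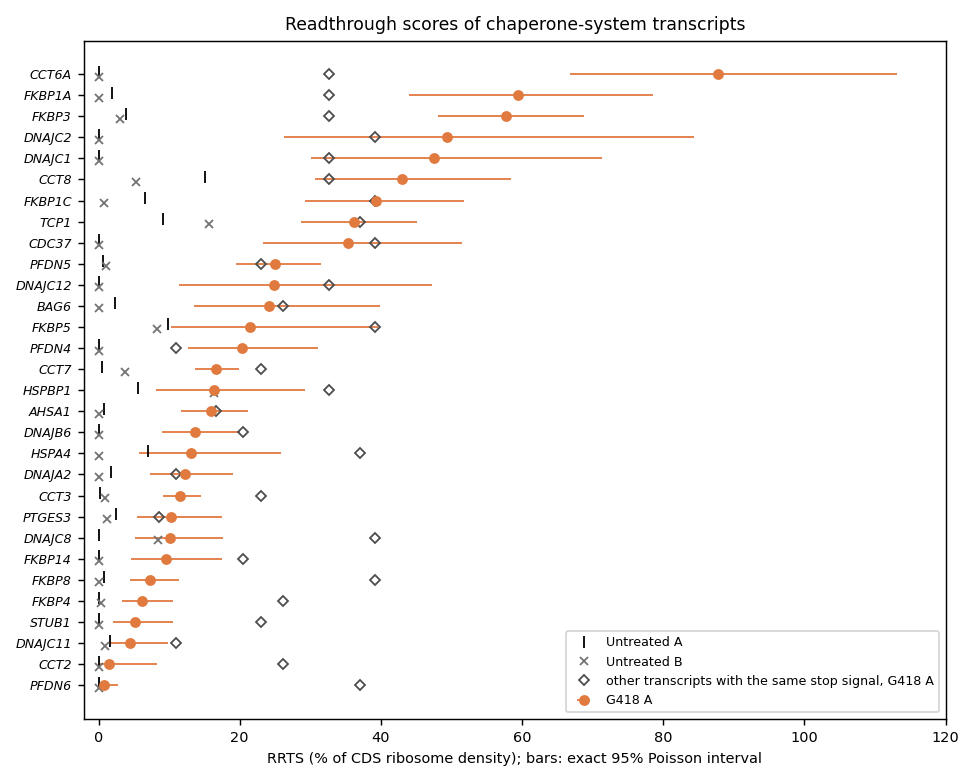
RRTS in percent of CDS density for the 30 members with at least 10 readthrough reads expected in G418 A from their stop signal, with circles and bars for G418 A and its exact 95% Poisson interval, ticks and crosses for the untreated libraries, and open diamonds for the pooled RRTS of non-members with the same stop signal in G418 A. CCT6A is highest at 87.7%, and CCT2 (1.49%) and PFDN6 (0.774%) are lowest.

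CCT6A, the zeta subunit of the chaperonin, had the highest RRTS of the 30 members with at least 10 reads expected from their stop signal. It had 0 readthrough reads in Untreated A and 0 in Untreated B, against 59 in G418 A. A count of 0 allows up to 3 reads (a one-sided limit), which would be an RRTS of 5.11% in Untreated A and 3.45% in Untreated B. The RRTS in G418 A was 87.7% (95% Poisson interval 66.8% to 113%), over a counted region of 24 nt, a length that takes in the 3′TC itself. The study describes ribosomes enriched at in-frame 3′TCs under G418, and their part in this score was not tested. The same limit holds for other members with an in-frame 3′TC, such as CCT8 with a counted region of 21 nt. CCT6A did not pass the test (edgeR adjusted p = 0.401, unadjusted p = 0.0188), in which a member with no untreated read rests on a single library. The RRTS was 2.69 times that of other transcripts with UGAA.

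RPFs on CCT6A also went on past the 3′TC. There were 0, 0 and 290 reads between the 3′TC and the end of the 3′UTR in Untreated A, Untreated B and G418 A. Their density was 11.8% of CDS density in G418 A, beside 0.951% pooled over all transcripts with a UGAA stop. In the reference transcript the NTC is UGAA, and the first 3 in-frame stop signals of the 3′UTR are UGAA as well, 9, 27 and 14 sense codons apart in turn. The files give no read positions, so reads between these stops could not be told apart. Among 28 tested transcripts with at least 100 reads past the 3′TC in G418 A, 10 had a density as high as CCT6A, itself included. CCT6A held 19.8% of all 3′UTR reads of the tested members in G418 A.

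Other members with high scores under G418 came from several families. FKBP1A, the small FK506-binding protein, had 1, 0 and 49 readthrough reads with a G418 score of 59.4%. Its listed stop lies 2083 bp from that of the isoform chosen to represent the gene, as taken up below. FKBP1C, a near-identical single-exon copy, had 7, 1 and 51 reads and 39.3%, and reads of either copy can be credited to the other. DNAJC2 had 0, 0 and 13 reads and 49.3%, and DNAJC1 had 0, 0 and 23 and 47.5%. CDC37, the kinase-specific HSP90 co-chaperone, had 0, 0 and 27 reads and 35.4%. PFDN5 had 2, 5 and 70 reads and 24.99%, and its 3′UTR holds no in-frame 3′TC, so its region runs to the end of the transcript. The same holds for AHSA1, HSPBP1 and PFDN1.

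CCT8, TCP1 and FKBP3 were the members with at least 5 readthrough reads in each untreated library. Whether these untreated reads came from readthrough was not tested, because their reading frame was not available. CCT8, the theta subunit, had 12, 6 and 40 reads and an RRTS of 15.1%, 5.37% and 42.9%. TCP1 had 13, 34 and 80 reads and 9.19%, 15.7% and 36.2%. Both lay above their untreated values in G418 A, and neither passed the test (edgeR adjusted p = 0.579 for each). The chaperonin as a group had a pooled RRTS of 1.97% (1.32% to 2.83%) in Untreated A and 3.64% (2.89% to 4.51%) in Untreated B. These untreated intervals did not overlap, and CCT7 and TCP1 together gave most of the reads in Untreated B.

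At the low end, PFDN6 had 0, 0 and 2 readthrough reads where 95.8 were expected in G418 A from its UGAU signal, an RRTS of 0.774%. CCT2 had 0, 0 and 1 reads where 17.6 were expected from UAGC (1.49%). For both PFDN6 and CCT2 the listed stop is not that of the isoform chosen to represent the gene. DNAJC11, a mitochondrial member, had 2, 2 and 6 reads and 4.52%, FKBP4 had 0, 1 and 13 and 6.15%, and STUB1 had 0, 0 and 7 and 5.13%. STUB1 was thus the member that rose in CDS occupancy and lay 0.223 times the level of its stop signal in readthrough.

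**Figure D4:**
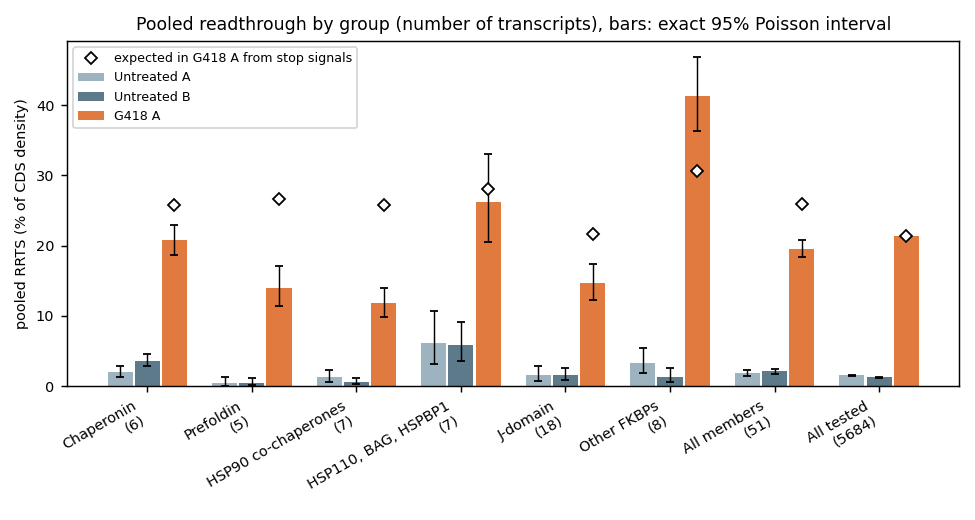
Pooled RRTS (percent of CDS density) of each group of members, of all 51 tested members and of all 5684 tested transcripts, with bars for Untreated A, Untreated B and G418 A, error bars for exact 95% Poisson intervals, and diamonds for the G418 value expected from the stop signals of the group. The FKBP group (41.3%, with 125 of its 246 readthrough reads from FKBP3) stands above its diamond, and the HSP90 co-chaperones (11.8%) and prefoldin (13.99%, or 21.7% without PFDN6) stand below theirs.

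By group, pooled RRTS under G418 was 20.8% for the chaperonin, 13.99% for prefoldin (21.7% without PFDN6), 11.8% for the HSP90 co-chaperones, 26.3% for HSPA4 with HSPBP1 and the BAG proteins, 14.7% for J-domain proteins and 41.3% for the remaining FKBP proteins. The untreated values were 0.436% and 0.507% for prefoldin, 1.24% and 0.634% for the HSP90 co-chaperones, 1.54% and 1.59% for J-domain proteins and 3.33% and 1.35% for the FKBP group. The group of HSPA4, HSPBP1 and the BAG proteins had the highest untreated values, 6.10% and 5.84%, from 12 and 19 reads. HSPBP1 gave 2 of the 12 reads in Untreated A and 13 of the 19 in Untreated B. In G418 A, BAG2 gave 26 of the 72 reads of this group, and its pooled RRTS was 20.8% without BAG2.

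The base after the stop codon and the stop codon itself are known to set much of readthrough, so observed reads were compared with those expected from non-members with the same 4-nt signal. UGAA, which gave 32.6% in non-members under G418, was the signal of 13 members (25.5%), beside 13.9% of all tested transcripts. The members had 1.08 times the expected reads in Untreated A and 1.54 times in Untreated B, against 0.755 times in G418 A (1049 observed, 1390 expected). In Untreated B, 140 reads were observed where 90.9 were expected. Of these, CCT7 gave 35 where 10.1 were expected, and TCP1 gave 34 where 3.10 were expected. The Untreated B ratio without this pair was not computed. Among the 30 members with at least 10 expected reads, 11 lay above and 19 below the expectation in G418 A, with a median ratio of 0.833. The same count over all transcripts was not made. The expectation is a pooled value, and over all tested transcripts the median RRTS (18.4%) also lay below the pooled one (21.3%). Some group ratios rested on a single member. Prefoldin lay at 0.525 times its expectation, and at 1.06 times without PFDN6, which gave 2 reads where 95.8 were expected. The FKBP group lay at 1.35 times, and at 1.08 times without FKBP3. The HSP90 co-chaperones lay at 0.456 times, and at 0.598 times without FKBP8, with 1 of the 7 above its expectation. Leaving out the member farthest from its expectation was chosen after the values had been seen.

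Values differed by signal within the set, as a description with no test. The 13 UGAA members had a pooled RRTS of 50.1% in G418 A, beside 32.8% for all UGAA transcripts, and FKBP3, CCT6A, FKBP1A and CCT8 gave 273 of their 329 readthrough reads. The 5 UAGC members, among them CCT2, FKBP4 and BAG6, had 8.93%, beside 25.7% for all UAGC transcripts. The 7 UAA members lay at 1.08 times the expectation of their signals, with 11.3% beside 12.2% for all UAA transcripts.

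The choice of the listed transcript was looked at beside the score. The stop codon of the listed transcript was compared, after the values had been seen, with that of the MANE Select transcript, the isoform that RefSeq and Ensembl chose jointly to represent a gene. It was the same for 42 tested members and another for 7: CCT2, PFDN1, PFDN6, FKBP1A, DNAJA3, DNAJB12 and DNAJC16. The listed stop lay 127 bp from the MANE Select stop for CCT2, 6035 bp for PFDN6 and 2083 bp for FKBP1A. Under G418 the pooled score was 19.8% for the 42 and 11.9% for the 7, of which FKBP1A gave 49 of 57 reads. Over all tested transcripts it was 23.2% for 5167 with the MANE Select stop and 5.29% for 394 with another. The part of transcript choice in the low scores of CCT2 and PFDN6, and in the high score of FKBP1A, was not tested.

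Reads over the whole 3′UTR followed the same direction. They were 0.215% of the mRNA reads of the members in Untreated A and 0.204% in Untreated B, against 2.16% in G418 A, beside 0.292%, 0.246% and 2.42% for all tested transcripts. The 5′UTR share of the members was 0.885%, 1.002% and 0.780%, beside 2.05%, 2.14% and 1.83% for all. Past the 3′TC, density in G418 A was 1.33% of CDS density over the 44 members with an in-frame 3′TC and at least 30 nt beyond it, and 0.818% without CCT6A, beside 0.848% over all such transcripts. In the untreated libraries it was 0.143% and 0.0928% for these members. DNAJB12 stood apart in its 5′UTR, with 77, 111 and 96 reads there beside 163, 120 and 203 in its CDS. That listed transcript has a 5′UTR of 1337 nt, and its stop codon lies 1222 bp from the MANE Select stop. The part of transcript choice in these 5′UTR reads was not tested.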

How the data were processed

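Ribosome profiling libraries of HEK293T cells were analysed from the tables that the authors deposited, 1 per library. The authors collapsed duplicate reads by unique molecular identifier, aligned them with STAR to hg38 and assigned fragments of 28 to 35 nt to 1 transcript per gene (GENCODE 30). Multi-mapped reads kept only their primary alignment, so near-identical genes are uncertain. The deposited values are RPM, RPKM densities (which leave out the first 18 nt and last 15 nt of each CDS), the RRTS ratio, and whole-number counts. Dividing RPM by the value of 1 read gave whole reads for 100% of nonzero values (within 0.02). RPM is relative to depths of 5857230 to 9477972 reads.

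Reads were tested with edgeR 4.0.16 (quasi-likelihood, TMM, R 4.3.3) over 5684 transcripts averaging at least 128 CDS reads. Readthrough reads were tested with the log of expected reads as offset, and transcripts without any readthrough read were kept, at the largest possible p-value, in the Benjamini-Hochberg adjustment. The fit had 1 residual degree of freedom. DESeq2 1.42.0 was an alternative. The edgeR steps were tested on simulated data. Intervals are exact Poisson for RRTS.

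Named genes were all chaperonin and prefoldin subunits, called members, the 10 largest CDS differences of the same sign over both untreated libraries, the 10 highest and 5 lowest RRTS in G418 A among members with at least 10 expected reads, and members with at least 5 untreated readthrough reads in each library. The members and lists were chosen with earlier results of these data known.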

Additional observations from a re-analysis of the deposited data

How the results depend on the processing

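STUB1 kept its call on the RPM scale, without a minimum of CDS reads and with the whole-number columns. The number of members called in CDS occupancy was 0 instead of 1 with DESeq2 and with a minimum of 500 CDS reads on average, a set of 26 members that STUB1 does not enter. Over all transcripts these settings called 27 and 33 instead of 151, and the RPM scale called 206, of which 173 were higher instead of 110. Members called in readthrough numbered 0 with DESeq2 instead of 2, and 2 under every other setting run. DESeq2 gave no adjusted p for 28 members in CDS occupancy and for 41 in readthrough. The pooled RRTS ratio of G418 over untreated, 9.86, was 12.2 with regions of at least 60 nt, 6.88 as a mean of the deposited RRTS, and between 9.28 and 10.5 when either untreated library was left out. The ratio to the stop signal, 0.755, was 0.700 without FKBP3, an alternative added after the data were seen, and 0.746 among transcripts with the MANE Select stop, also added. The 3′UTR share ratio, 10.3, was 8.26 without CCT6A, and between 10.0 and 10.6 when either untreated library was left out. The 5′UTR share ratio, 0.827, was 0.707 with at least 500 CDS reads and between 0.779 and 0.882 without either untreated library. The cause of these shifts was not tested. Leaving out an untreated library leaves no residual degrees of freedom, so the tests were not run that way. No paired analysis was possible because the groups share only the replicate letter A. With 1 G418 library and few readthrough reads in untreated cells, differences for single members were mostly not detectable at this depth.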
